A study of Rattus norvegicus with 4 samples.

Results

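Id1, Id2 and Id3, members of the Id family of transcription regulators, and Pmepa1, a target and modulator of the TGF-beta pathway, were followed across 4 Affymetrix RG-U34A oligonucleotide arrays. All probe sets with 1 of these 4 symbols as their single gene symbol in the annotation of the array were taken, which gave 4 genes of 4736 and 6 of the 8740 probe sets other than the manufacturer's controls, namely 2 for Id1, 1 for Id2, 2 for Id3 and 1 for Pmepa1. Id4, the remaining member of the family, had 0 probe sets with a single symbol. The genes were chosen by their folds at 90 min on these same arrays, so that these values are a description and were not tested. The arrays measured RNA of Rat1 cells, rat fibroblasts grown as an immortal line, stably infected with an empty retrovirus (Rat1-control) or with a retrovirus that produces Omomer (Rat1-Omomer), called control and Omomer cells for short. Omomer is Omomyc, a mutated dimerization region of Myc, fused to a part of the estrogen receptor that tamoxifen (4-OHT) switches on. Both cell lines were kept for 48 h in 0.1% serum and harvested either at 0 min or 90 min after the switch to 10% serum, and both received 4-OHT, so that the control cells were exposed to the drug as well. The sample labels place 4-OHT in the medium during the whole starvation and the methods only during its last hours. Each condition has 1 array, so that the spread between cultures is unknown, and the effect of Omomer and that of the separate infection of each line cannot be told apart. In RNA of whole cultures, fewer responding cells and less RNA per cell cannot be told apart either. The titles, sources and descriptions gave the conditions, but the transfection field of the labels contradicts them for 2 arrays, since it puts the control vector on both 0 min arrays and Omomyc on both 90 min arrays. The values cannot settle this, as the transgene has no probe set named here.

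Id proteins carry a helix-loop-helix domain but no basic region. They pair with basic helix-loop-helix factors, mainly the E proteins, and keep them from binding DNA at E-boxes, which in general delays differentiation and favours growth. In fibroblasts, Id genes are known as early responders to serum, and they are also classical targets of Smads, the proteins that carry TGF-beta and BMP signals from receptors to promoters. Pmepa1 encodes a membrane protein that is induced by TGF-beta and binds Smad2 and Smad3, which dampens the signal.

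The sequences before the start sites of the 4 genes are shown because Id3 and Pmepa1 were high together at 90 min, and because E-boxes are the sites that Myc and Omomyc complexes bind. They come from RefSeq promoters of the rat genome build GRCr8, in which all 4 genes matched by symbol. Id1 lies on chromosome 3 (161671525 to 161672691), Id2 on chromosome 6 (47469162 to 47470995), Id3 on chromosome 5 (153656253 to 153657860) and Pmepa1 on chromosome 3 (182430193 to 182478649). Each stretch covers 211 bases, beginning 250 bases before the start site, and the 39 bases nearest to that site are left out. The annotated transcripts of Id1 set this end for all 4 genes. For Id2 and Pmepa1 the 39 bases left out lie before the annotated gene, so that the bases next to their start were not searched. The stretch is chr3:161671314-161671524 on the plus strand for Id1, chr6:47471035-47471245 on the minus strand for Id2, chr5:153656041-153656251 on the plus strand for Id3 and chr3:182478689-182478899 on the minus strand for Pmepa1. Capitals mark E-boxes (CANNTG) and the Smad-binding letters CAGAC, which read GTCTG on the other strand.
Id1: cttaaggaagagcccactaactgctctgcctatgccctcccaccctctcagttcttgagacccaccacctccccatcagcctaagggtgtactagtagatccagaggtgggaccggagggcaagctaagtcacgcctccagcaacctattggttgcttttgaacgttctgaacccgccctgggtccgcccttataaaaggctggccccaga
Id2: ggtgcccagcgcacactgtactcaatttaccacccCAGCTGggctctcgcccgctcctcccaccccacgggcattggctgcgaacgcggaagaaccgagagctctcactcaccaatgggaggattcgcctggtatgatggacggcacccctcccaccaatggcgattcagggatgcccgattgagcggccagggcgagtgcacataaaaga
Id3: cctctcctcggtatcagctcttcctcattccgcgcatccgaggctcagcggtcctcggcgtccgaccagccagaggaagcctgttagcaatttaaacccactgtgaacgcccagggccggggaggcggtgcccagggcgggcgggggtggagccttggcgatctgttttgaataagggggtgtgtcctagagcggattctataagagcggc
Pmepa1: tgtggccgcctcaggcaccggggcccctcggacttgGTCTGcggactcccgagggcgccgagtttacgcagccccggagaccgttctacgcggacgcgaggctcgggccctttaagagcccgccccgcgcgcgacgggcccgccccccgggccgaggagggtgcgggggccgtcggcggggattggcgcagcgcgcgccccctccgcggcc

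Over both strands and with overlapping matches counted, CANNTG was found in 59.7% of the 33469 promoters of the same length, and among the 4 genes in that of Id2. The E-box preferred by Myc and Max, CACGTG, a special case of CANNTG, was found in 4.55% of all promoters and in 0 of these 4. CAGAC was present in 37.9% of all promoters and in that of Pmepa1. GGCGCC, a motif of BMP-responsive Smads, was found in 7.05% of all promoters and in that of Pmepa1. GGGCGG, the core of the sites of Sp1, was held by 26.0% of all promoters and occurred 2 times each in Id1, Id3 and Pmepa1. TGACG, part of the site of cAMP-responsive factors, was found in 14.7% and the CArG box of serum response factor in 1.30% of all promoters, and neither in these 4. The share of G and C was 56.4% for Id1, 61.6% for Id2, 62.1% for Id3 and 78.7% for Pmepa1, against a median of 50.7% over all promoters. A match is a run of letters in this window and no evidence of binding. A motif not found in it may still lie in the bases left out.

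At 90 min over 0 min, Id3 had the highest folds of the family. Each value is an average difference, by which perfect match probes outshine their mismatch partners, in linear intensity units, and levels of different probe sets cannot be compared. The probe set rc_AI171268_at of Id3 read 8230 in control and 3306 in Omomer cells at 0 min, and 54097 in control and 59972 in Omomer cells at 90 min. The other, AF000942_at, read 2297 and 793 at 0 min, and 28332 and 47199 at 90 min, in the same order of cell lines. By both probe sets the order of the 4 conditions was the same, with Rat1-Omomer cells highest at 90 min and lowest at 0 min. The noise SD of the arrays, estimated from the values below 0, was 524, and a floor of 1048, 2 times this SD, was set under all values before ratios were taken. The value of 793 lies under this floor, and a fold against it is a lower bound. All neighbours in the order of conditions differed by more than the noise SD of a difference, 741, which covers the noise of dim values and not errors in proportion to the signal.

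In Rat1-control cells, Id3 was 12.3-fold higher at 90 min than at 0 min by AF000942_at and 6.57-fold higher by rc_AI171268_at. In rank from the highest these were numbers 8 and 19 of the 3985 probe sets with a fold. In Rat1-Omomer cells it was at least 45.0-fold and 18.1-fold higher at 90 min than at 0 min, the latter with rank 6 of 4209. The folds of both probe sets differed by 0.91 on the log2 scale in control and 1.31 in Omomer cells. The SD within a gene of such log2 folds, over 389 genes that have several probe sets exceeding the floor everywhere, was 0.31 and 0.73. For a difference of 2 such folds it gives an SD of 0.44 and 1.03. The SD within a gene measures the arrays and not the cultures, and it was also 0.75 for Rat1-Omomer at 90 min over Rat1-control at 0 min and 0.29 at 0 min. Probe sets of the same gene thus agreed less in folds with the Rat1-Omomer 90 min array. The SD also holds probe sets of 5 series of expressed sequence tags, described below, that read low on this array. The Id genes and Pmepa1 have 0 probe sets in these series, and the part of the series in the SD was not tested.

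**Figure D1:**
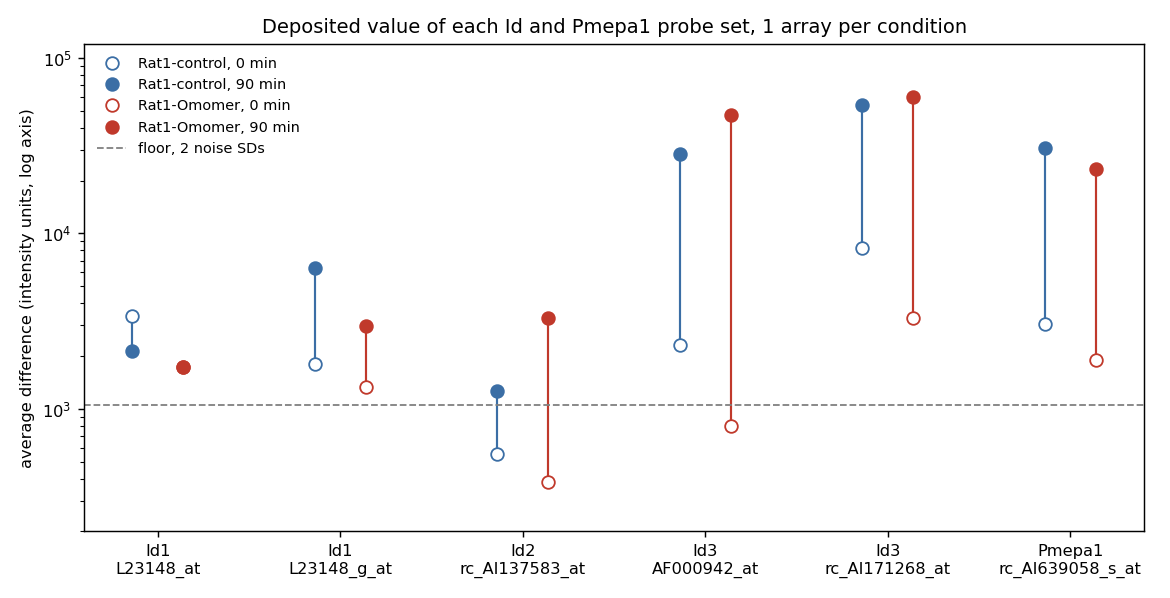
Average difference (intensity units, log axis) of the 6 probe sets on the 4 arrays, in Rat1-control (blue) and Rat1-Omomer (red) cells at 0 min (open points) and 90 min (filled points), with a line between both times of a cell line and the floor of 1048 dashed. For Id3 and Pmepa1 both filled points lie far above both open points, whereas for Id1 by L23148_at the highest point is Rat1-control at 0 min and both Rat1-Omomer points, 1741 and 1721, coincide.

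Pmepa1 followed the same course in time. Its single probe set read 3035 in control and 1895 in Omomer cells at 0 min, and 30514 in control and 23202 in Omomer cells at 90 min. Both values at 90 min lie above both at 0 min, and in contrast to Id3 the highest value is that of Rat1-control cells. Pmepa1 was 10.1-fold higher at 90 min in Rat1-control cells, rank 10 of 3985, and 12.2-fold higher in Rat1-Omomer cells, rank 13 of 4209, each over its own 0 min array. The gain in intensity was 27479 in control and 21307 in Omomer cells. The larger ratio in Rat1-Omomer cells thus goes with a smaller gain and a lower value at 0 min.

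For Id1 the result depends on the probe set. Both probe sets carry the name of the same sequence entry, L23148, and were above the floor on all 4 arrays. L23148_at read 3379 in control and 1741 in Omomer cells at 0 min, and 2131 and 1721 at 90 min. Thus it was 1.59-fold lower at 90 min in Rat1-control cells and 1.01-fold lower in Rat1-Omomer cells. The values of 2131, 1741 and 1721 are neighbours that lie within the noise SD of a difference. L23148_g_at read 1790 in control and 1325 in Omomer cells at 0 min, and 6369 and 2958 at 90 min. It was 3.56-fold higher at 90 min in Rat1-control cells, rank 56 of 3985, and 2.23-fold higher in Rat1-Omomer cells. Its 2 values at 0 min lie within the noise SD of a difference. In Rat1-control cells the log2 folds of both probe sets, -0.67 and 1.83, differed by 2.50. The SD of such a difference within a gene was 0.44, so that a direction cannot be given for Id1. With the values of L23148_g_at each moved 1 noise SD towards the other, its fold in Rat1-control cells was 2.53.

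Id2 was above the floor only at 90 min. Its probe set read 554 in control and 383 in Omomer cells at 0 min, and 1268 in control and 3306 in Omomer cells at 90 min. The values of Rat1-control cells at both times and of Rat1-Omomer cells at 0 min are neighbours within the noise SD of a difference, and that of Rat1-Omomer cells at 90 min stands above them. Both values at 0 min lie under the floor, so that Id2 has no fold between the cell lines at 0 min. It was at least 1.21-fold higher at 90 min in Rat1-control cells and at least 3.15-fold higher in Omomer cells. The bound of 3.15 is close to the threshold, and with both values moved 1 noise SD nearer to each other it was 2.65, while a floor of 4 noise SDs lowered it to 1.58.

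A fold of 3 was used as the threshold in either direction. In the serum response of Rat1-control cells, 4 of the 6 probe sets passed it upwards and 0 downwards, against 1.93% and 1.81% of all probe sets with a fold. These 4 belong to Id3, Pmepa1 and, with L23148_g_at, Id1. In the response of Rat1-Omomer cells over their own 0 min array, 4 of 6 passed it upwards, against 2.90% of all, and 0 downwards, against 9.65%. These 4 were the probe sets of Id3, Pmepa1 and Id2. The median log2 fold of the 6 was 2.27 in control and 2.64 in Omomer cells, beside -0.07 and 0.09 over all probe sets with a fold. Since the genes were chosen for these values, the counts describe them and nothing is read from the difference to the background.

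Starved Rat1-control cells can also serve as the reference for Rat1-Omomer cells in serum. Over them, Id3 stood at 20.5-fold by AF000942_at and 7.29-fold by rc_AI171268_at, ranks 4 and 15 of 4220. This comparison and the 2 others over Rat1-control cells at 0 min share that array. Pmepa1 was 7.64-fold higher, rank 14, and Id2 at least 3.15-fold higher. Id1 was 1.96-fold lower by L23148_at and 1.65-fold higher by L23148_g_at. Here 4 of the 6 probe sets passed the threshold upwards, against 2.80% of all, and 0 downwards, against 9.95%.

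**Figure D2:**
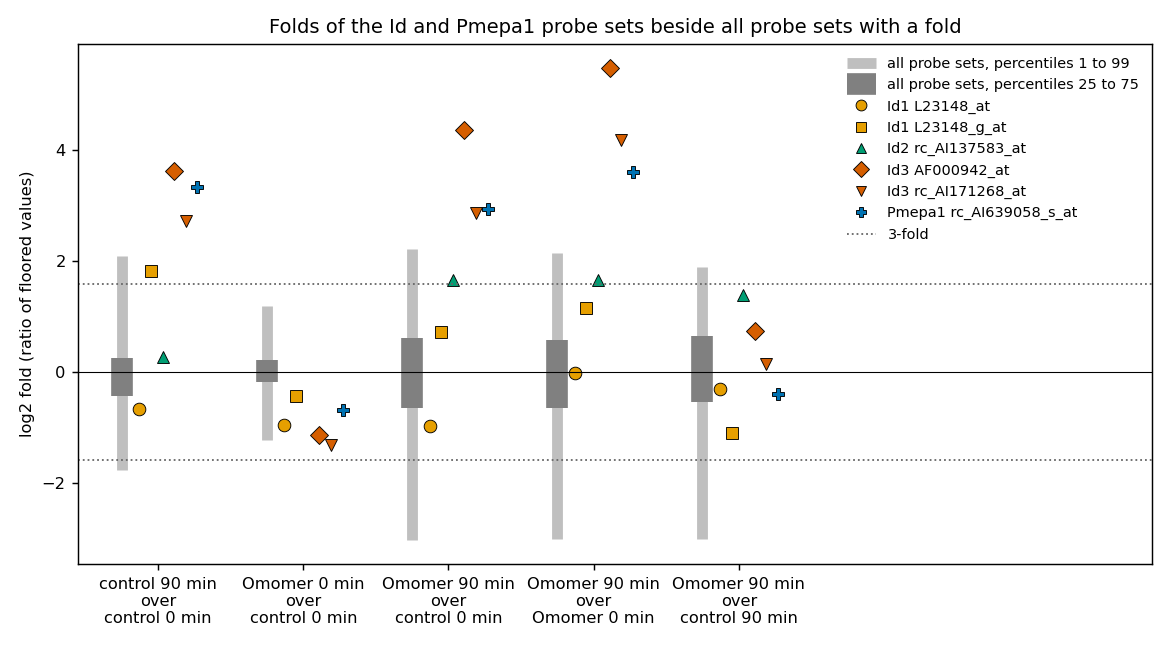
Log2 fold (ratio of floored values) of the 6 probe sets in 5 comparisons, beside all probe sets with a fold (grey bars, percentiles 25 to 75 wide and 1 to 99 narrow), with 3-fold dotted. Symbols of Id2, and of AF000942_at wherever the Rat1-Omomer 0 min array enters, stand at lower bounds except for Id2 between the cell lines at 90 min. Id3 and Pmepa1 lie above the 99th percentile in each of the 3 comparisons of 90 min with 0 min, and all symbols lie below 0 for the cell lines at 0 min.

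In starved cells, before serum, all 6 probe sets read lower in Rat1-Omomer than in Rat1-control cells, for Id2 and L23148_g_at of Id1 by less than the noise SD of a difference. Id3 was 2.49-fold lower by rc_AI171268_at and at least 2.19-fold lower by AF000942_at, the former with rank 34 from the lowest of 3977 probe sets. The bound by AF000942_at falls to 1.10-fold at a floor of 4 noise SDs. Id1 was 1.94-fold lower by L23148_at, rank 84, and 1.35-fold lower by L23148_g_at, rank 420. Pmepa1 was 1.60-fold lower, rank 191. All 5 probe sets with a fold were lower, beside 48.2% of all, and their median log2 fold was -0.96 beside 0.01 over all. The 5 measure only 3 genes, which were chosen from these same arrays, so that nothing is read from the difference to the background. None of the 5 reached 3-fold, which 0.503% of all probe sets did in the lower and 0.251% in the higher direction. The SD within a gene of log2 folds was 0.29 in this comparison, and the log2 folds were -1.32 and -1.13 for Id3, -0.96 and -0.43 for Id1 and -0.68 for Pmepa1. With each value moved 1 noise SD nearer to the other, rc_AI171268_at was still 2.01-fold, AF000942_at 1.35-fold, L23148_at 1.26-fold and Pmepa1 1.04-fold lower, whereas L23148_g_at changed sides.

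At 90 min the ratios between the cell lines were nearer to 1 for Id3 and Pmepa1 than at 0 min. In Rat1-Omomer over Rat1-control cells, Id3 was 1.67-fold higher by AF000942_at and 1.11-fold higher by rc_AI171268_at, and Pmepa1 1.32-fold lower. Their log2 folds, 0.74, 0.15 and -0.40, are about as large as the SD within a gene of 0.73 or smaller. That SD also covers probe sets of the 5 series of expressed sequence tags, to which the Id3 and Pmepa1 probe sets do not belong. Id2 was 2.61-fold higher in Rat1-Omomer cells, rank 155 of 4048. Id1 was 1.24-fold lower by L23148_at and 2.15-fold lower by L23148_g_at. Of the 6 probe sets 3 were higher and 3 lower, and 0 reached 3-fold in either direction, against 2.22% higher and 8.57% lower of all. The noise floor of the Rat1-Omomer 90 min array alone would be 1228, below all 6 values of that array, and that of the Rat1-control 90 min array 1090, below the value of Id2.

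Set side by side, the log2 folds over 0 min were 2.72 in control and 4.18 in Omomer cells for rc_AI171268_at of Id3, a difference of 1.46. For AF000942_at they were 3.62 and 5.49, a difference of 1.87 in which the second fold is a bound. Pmepa1 had 3.33 and 3.61, a difference of 0.28. For Id2, 0.27 and 1.66 differ by 1.38, with both values at 0 min set to the floor. For Id1 the difference went both ways, with 0.65 by L23148_at and -0.67 by L23148_g_at. With 1 array per condition the difference of the responses could not be tested.

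**Figure D3:**
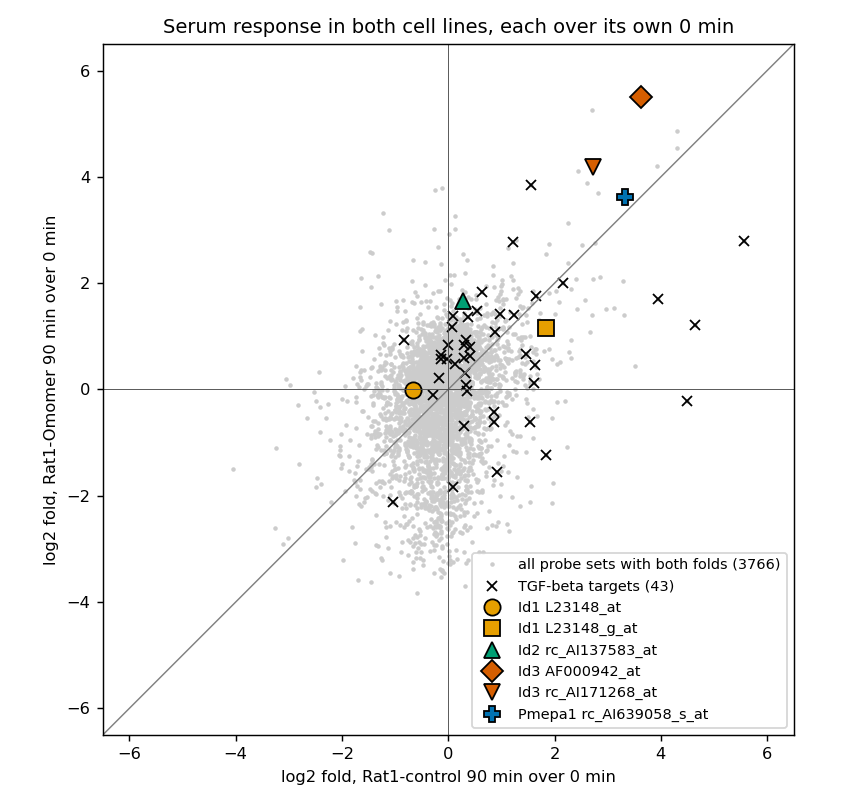
Log2 fold at 90 min over 0 min in Rat1-control cells (horizontal axis) and Rat1-Omomer cells (vertical axis) for 3766 probe sets with both folds (grey dots), 43 probe sets of TGF-beta targets (crosses) and the 6 probe sets of Id genes and Pmepa1 (large symbols); both axes share no array, and the diagonal marks equal folds. Id3 and Pmepa1 lie at the upper right and above the diagonal. Id1 lies near the other probe sets by L23148_at and below the diagonal at 1.83 and 1.16 by L23148_g_at.

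The nearest patterns were sought in the 3195 singly annotated probe sets that exceeded the floor on 2 or more arrays, by the root mean square difference of the 3 log2 folds over Rat1-control cells at 0 min. For Id3 these were Errfi1, an inhibitor of the EGF receptor, with a difference of 0.19, Dusp5, a phosphatase of MAP kinases, with 0.38, and Pmepa1 with 0.51. Errfi1 read 2345 and 779 at 0 min and 12715 and 18009 at 90 min in Rat1-control and Rat1-Omomer cells. For Pmepa1 the nearest were Dusp5 with 0.44, Id3 with 0.51 and Il1rl1, a receptor of the interleukin-1 family, with 0.52. For Id2 they were Nkiras2 with 0.05, Smad2 with 0.08 and Cebpg with 0.09. Nkiras2 had both values at 0 min under the floor, as Id2 has. For Id1 by L23148_g_at, which has the higher mean over the 4 arrays through its values at 90 min and not at 0 min, they were Csrp1, a LIM domain protein, with 0.19, the growth factor Pdgfa with 0.20 and the growth factor Nrg1 with 0.26. Il1rl1 also had both values at 0 min under the floor, and Errfi1 and Pdgfa had that of Rat1-Omomer cells at 0 min under it. Their differences rest in part on the floor. These likenesses rest on 4 arrays.

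Lists of genes of the same pathways were read in the same way, beside medians over all probe sets of -0.07 in Rat1-control cells, 0.09 in Rat1-Omomer cells and 0.18 between the cell lines at 90 min. Of the ligands of the TGF-beta and BMP pathways, 16 genes of 21 were on the array with 21 probe sets, of which 10 were under the floor on all arrays. In Rat1-control cells at 90 min, 0 of 11 ligand probe sets with a fold passed 3-fold in either direction, against 1.93% upwards and 1.81% downwards of all. A count of 0 in lists this short, here and below, is near the background. The median log2 fold of the ligands was 0.11. Inhba, a subunit of activin, was the highest at 1.93-fold. Inha, the inhibin subunit, was 2.13-fold lower by M36453_at, its brighter probe set, and 1.09-fold lower by M32754cds_s_at. In Rat1-Omomer cells 2 of 11 passed it upwards, against 2.90% of all, and the median was 0.41. Inhba was 3.17-fold higher, and of 2 probe sets of Tgfb3, a TGF-beta ligand, U03491_at was at least 3.93-fold and U03491_g_at, the brighter, 1.33-fold higher. Between the cell lines at 0 min Tgfb3 went both ways, 1.71-fold higher by U03491_g_at and at least 1.92-fold lower by U03491_at in Rat1-Omomer cells.

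The receptors had no probe set past 3-fold in Rat1-control cells at 90 min, 0 of 8, against 1.93% higher and 1.81% lower of all. Their median was -0.14. The type I receptor of BMPs Bmpr1a was at least 2.46-fold lower and Acvr1, a type I receptor of the same pathway, 1.17-fold higher. The values of Acvr1, 1076 at 0 min and 1261 at 90 min, lie within the noise SD of a difference. In Rat1-Omomer cells over their own 0 min array, 1 of 10 passed 3-fold downwards and 0 upwards, near the shares of 9.65% and 2.90% of all. This was Tgfbrap1, a protein that associates with TGF-beta receptors, which was 3.45-fold lower, and the highest was Tgfbr1, the type I receptor of TGF-beta, at 2.15-fold. The value of Tgfbrap1, 1133, lies under 1228, the floor that this array has by its own noise.

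Of the Smads that transmit the signal, 0 of 6 probe sets were past 3-fold in Rat1-control cells, against 1.93% higher and 1.81% lower of all. There Smad2 was 1.30-fold higher and Smad3 1.44-fold lower. In Rat1-Omomer cells 1 of 7 passed 3-fold downwards, against 9.65% of all, and 0 upwards, against 2.90%, and the median was 0.91. The 7 measure 4 genes, with 3 probe sets of Smad2 and 2 of Smad1, so that the median rests mostly on these genes. Smad3 was 1.19-fold lower. Smad2, which transmits TGF-beta signals, read 3644 in control and 3779 in Omomer cells at 0 min, and 4720 and 10959 at 90 min, by its brightest probe set. It was thus 2.90-fold higher in Rat1-Omomer cells, and 1.87-fold and 1.96-fold higher by its other probe sets. Smad4, the partner shared by all signalling Smads, read 3391 and 3575 at 0 min, and 2657 and 595 at 90 min, at least 3.41-fold lower in Omomer cells. Smad4 has 1 probe set with a single symbol.

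Among inhibitors and binding proteins of the ligands, 0 of 7 probe sets were past 3-fold in Rat1-control cells at 90 min, against 1.93% higher and 1.81% lower of all. The only probe set of the inhibitory Smad7 was below 0 on all 4 arrays. The median log2 fold of the list was 0.16 in this comparison and -0.77 over 5 probe sets in Omomer cells. Both turned their sign in smaller choices of probe sets, to -0.22 without those under the floor on 1 array and to 0.57 without those whose IDs start with rc_. The value of 0.57 rests only on U31203_at of Nog, whose fold is a lower bound, and S72637_s_at of Nbl1. Ltbp1, which binds latent TGF-beta in the matrix, read 4153 in control and 6171 in Omomer cells at 0 min, and 12115 and 1416 at 90 min. It was 2.92-fold higher in control and 4.36-fold lower in Omomer cells, and 8.56-fold lower in Rat1-Omomer than in Rat1-control cells at 90 min. Its log2 fold between the cell lines at 90 min was -3.10.

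Among genes known as targets of TGF-beta, a list that excludes the Id genes and Pmepa1, 10 of 45 probe sets passed 3-fold upwards and 0 downwards in the response of Rat1-control cells, against 1.93% and 1.81% of all, and the median log2 fold was 0.54. The 10 measure Vegfa, Tpm1, Tagln, Acta2 and Plaur, of which Tpm1, Tagln and Acta2 encode proteins of the actin cytoskeleton. All of these genes but Plaur count with several probe sets. The list was chosen with earlier results of these data known, so that nothing is read from the difference to the background. In Rat1-Omomer cells 7 of 45 passed it upwards and 2 downwards, against 2.90% and 9.65% of all, and the median was 0.64. Between the cell lines at 90 min, 2 of 46 passed it upwards and 10 downwards, against 2.22% and 8.57% of all, and the median was 0.15. Bhlhe40 counts in this list and in that of the helix-loop-helix factors. Plaur, the urokinase receptor, read 26308 in control and 2431 in Omomer cells at 90 min, a 10.8-fold lower value. In the response of Rat1-Omomer cells Tagln was 6.94-fold higher by M83107_g_at and 1.17-fold lower by M83107_at. Junb, a subunit of AP-1, was 4.33-fold lower in the same comparison by rc_AA891041_at and 1.91-fold higher by X54686cds_at.

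The E proteins and other helix-loop-helix factors, to which the partners of Id proteins belong, had 0 of 10 probe sets past 3-fold in Rat1-control cells at 90 min. Of all probe sets, 1.93% were past it upwards and 1.81% downwards. The median of these factors was -0.23, or -1.01 without those under the floor on 1 array. The E protein gene Tcf4 read 6689 in control and 5019 in Omomer cells at 0 min, and 2723 and 8663 at 90 min. Tcf4 was 2.46-fold lower in control and 1.73-fold higher in Omomer cells at 90 min. Tcf3, which encodes E12 and E47, was 2.10-fold lower in control and 1.71-fold lower in Omomer cells by its brighter probe set. Tcf12, a further E protein gene, was 1.02-fold higher and 1.27-fold lower. In Rat1-Omomer cells 1 of 12 probe sets passed 3-fold upwards and 1 downwards, against 2.90% and 9.65% of all. The former was that of the repressor Bhlhe40 at a bound of 3.55-fold. The latter was D13417_g_at of the Notch target Hes1 at 3.02-fold, close to the threshold. The other probe set of Hes1, D13417_at, exceeded the floor only in Rat1-Omomer cells at 0 min and was at least 1.28-fold lower. Tcf3 was added to those named by rule after its values were seen. Myc, to whose protein Omomyc binds, read 1172 in control and 2307 in Omomer cells at 0 min, and 4980 and 7233 at 90 min, by Y00396mRNA_g_at. Its other probe set, Y00396mRNA_at, read 222 and 534 at 0 min and 1171 and 159 at 90 min, of which 1171 alone exceeds the floor, so that it was at least 1.12-fold lower in Omomer cells at 90 min.

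**Figure D4:**
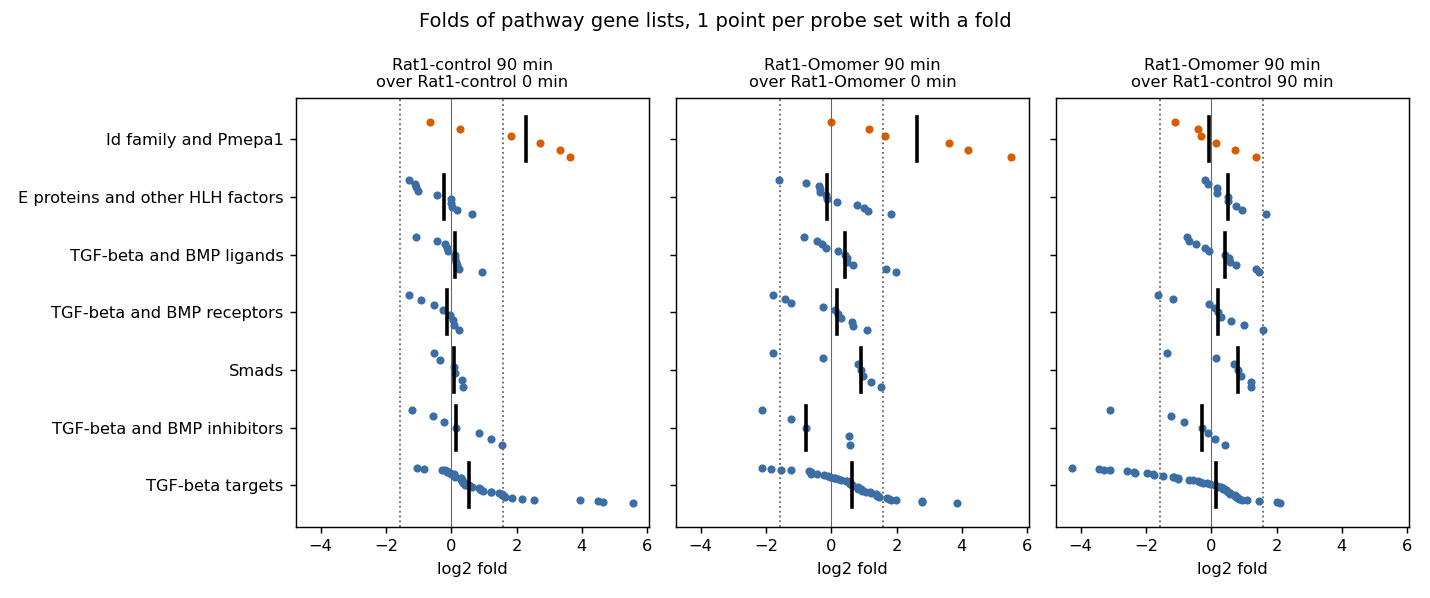
Log2 folds of the probe sets of 7 gene lists (1 point per probe set with a fold, bar at the median, 3-fold dotted) at 90 min over 0 min in each cell line, and between the cell lines at 90 min. The Id and Pmepa1 probe sets (orange) have medians of 2.27, 2.64 and -0.08. The targets of TGF-beta have the widest range of the lists shown in each panel, and also the most points, 45 or 46 against at most 12 in any other list.

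The arrays limit these values in ways that can be measured. Most fibroblast markers were found, with 11 of 15 genes above the floor on all arrays. Dcn, Lum and Pdgfrb were under it on all arrays, and Postn was under it on the Rat1-Omomer 90 min array. Of the epithelial genes 0 of 6 and of the endothelial genes 0 of 3 exceeded it on any array. Of the other markers, 2 of 4 leukocyte and 2 of 7 skeletal muscle genes exceeded it on some array, and of 4 neural genes Snap25 did so on all. The low values of the Rat1-Omomer 90 min array gathered in 5 series of expressed sequence tags, with names beginning rc_AA79, rc_AA80, rc_AA85, rc_AA87 or rc_AA89. Over the same cells at 0 min, 29.6% of these probe sets passed 3-fold downwards, against 3.70% of the others. The series were grouped with their values known. The Id genes and Pmepa1 have 0 probe sets in these series, while Tgfbrap1 belongs to them, and so do 4 of the 10 probe sets of TGF-beta targets that passed 3-fold downwards between the cell lines at 90 min, those of Ccn1 and Col1a2 and 1 each of Vegfa and Junb. Of the 2 targets that passed it downwards in Omomer cells over 0 min, both lie in these series, and so does 1 of the 2 that passed it upwards between the cell lines, of Lox. The part of this in their folds was not tested.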

How the data were processed

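Total RNA of 4 samples was hybridized to 1 RG-U34A array each. The authors scanned the arrays and computed average differences in MAS 4, and deposited these linear intensities with values below 0, which make up 24.8% to 27.7% of an array. Having 1 array per condition is what limits the precision. Titles gave each sample its condition.

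The genes and lists were chosen with earlier results of these data known. Of 8799 probe sets, 59 controls were left out. Of the other 8740, 7006 had 1 gene symbol, 308 several and 1426 none in the annotation of the platform. The noise SD was 1.4826 times the median absolute negative value, and values under 2 noise SDs were set to this floor. Folds are ratios of floored values, and a probe set whose values are both under it has none. The MAS 4 Fold Change of the study was not used here. No test was made, since each condition has 1 array. Named by rule were all Id and Pmepa1 probe sets, the highest and lowest gene of each list and comparison by its brightest probe set, the 3 nearest patterns and Myc, and not all of these are given. Other probe sets and Smad7, Vegfa, Tpm1, Acta2, Tcf3, Ccn1, Col1a2, Lox, Fn1, Itgb1 and Spp1 were named after their values were seen. So were the fibroblast markers Dcn, Lum, Pdgfrb and Postn. The code for folds and counts was tested on simulated data, which says nothing of the spread between cultures. Promoters were searched over 211 rather than 250 bases to leave out transcribed bases of Id1 and Id3. This also left out bases of Id2 and Pmepa1 that are not transcribed by the annotation. Alternatives were 3 other floors, median scaling, quantile normalization, the difference form of the MAS 4 fold, for lists 1 probe set per gene, those above the floor throughout and those not starting with rc_, and, added after seeing the data, values moved 1 noise SD nearer. Python 3.11.15, numpy 2.4.6, pandas 2.3.3 and matplotlib 3.10.9 were used.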

Additional observations from a re-analysis of the deposited data

Results flagged for a closer look

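Of the 88 probe sets of the lists with a fold in both cell lines, 11 had values that moved in opposite directions between 0 and 90 min, each by more than the noise SD of a difference. The share of all probe sets that do so was not counted, so that nothing is read from these numbers about the lists. Over all probe sets with a fold, 9.65% passed 3-fold downwards in Rat1-Omomer cells at 90 min, against 1.81% in Rat1-control cells. The differences of the log2 folds, Omomer minus control cells, were not tested, since each condition has 1 array. Of the 11, 8 were higher at 90 min in control and lower in Omomer cells. The difference was -3.67 for Ltbp1, which binds latent TGF-beta, -3.08 for rc_AA850734_at of the growth factor gene Vegfa, -2.46 for the matrix protein gene Ccn1 and -2.15 for X02412_at of the tropomyosin gene Tpm1. It was -1.93 for the collagen gene Col1a2, -1.46 for the integrin gene Itgb1, -1.30 for Spp1, which encodes osteopontin, and -0.99 for X05834_at of the fibronectin gene Fn1. The probe sets of Vegfa, Ccn1 and Col1a2 lie in the 5 series of expressed sequence tags that read low on the Rat1-Omomer 90 min array, and their part in the result was not tested. The other 3 were lower in control and higher in Omomer cells. The difference was 2.08 for the E protein gene Tcf4, 1.78 for X54686cds_at of Junb and 1.57 for M77809_at of Tgfbr3, a co-receptor of TGF-beta. The other probe set of Tgfbr3, M80784_s_at, had a log2 fold of -0.25 in each cell line, and the other probe sets of Vegfa, Tpm1, Fn1 and Junb did not meet the measure either. Neither the Id genes nor Pmepa1 moved in opposite directions by this measure.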

How the results depend on the processing

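The numbers of Id and Pmepa1 probe sets at least 3-fold higher or lower stayed within 1.5 times under all 7 alternatives, and no fold of a probe set past 3-fold turned its direction. Id3 and Pmepa1 stayed past 3-fold in all 3 comparisons of 90 min with 0 min under each of them. The log2 fold of Id2 in Rat1-Omomer cells at 90 min was 0.66 over either 0 min array at a floor of 4 noise SDs, under the threshold, and 1.37 over Rat1-control and 1.41 over Rat1-Omomer cells at 0 min with values 1 noise SD nearer, an alternative chosen after seeing the data, where that of L23148_g_at of Id1 in Rat1-control cells was 1.34. At a floor of 1 noise SD, Id2 had a log2 fold of -0.08 between the cell lines at 0 min, where it otherwise has none. Restricted to probe sets exceeding the floor on each of the arrays compared, the median of the helix-loop-helix factors in Rat1-control cells at 90 min was -1.01 in place of -0.23 and that of the inhibitors -0.22 in place of 0.16. Without probe sets whose IDs start with rc_, the median of the inhibitors in Rat1-Omomer cells at 90 min was 0.23 over Rat1-control and 0.57 over Rat1-Omomer cells at 0 min, in place of -0.85 and -0.77. Only Nog and Nbl1, with 1 probe set each, then had a fold. The last 2 settings leave out probe sets, and the cause of each change was not tested. No other list median moved by more than the SD within a gene. Over all probe sets, the counts past 3-fold depend on the floor. In Rat1-control cells at 90 min over 0 min, 77 were higher and 72 lower, against 156 lower at 1 noise SD, 49 and 32 at 4, and 49 and 27 with values nearer. For the cell lines at 0 min, 10 were higher and 20 lower, against 25 and 55 at 1 noise SD, 4 and 12 at 4, 18 and 36 by the difference form and 6 and 9 with values nearer. For Rat1-Omomer at 90 min over Rat1-control at 0 min, 118 and 420 became 192 and 691, 74 and 203, and 64 and 259 at 1 noise SD, at 4 and with values nearer. Over Rat1-Omomer at 0 min, 122 and 406 became 203 and 676, 76 and 192, and 67 and 257. Over Rat1-control at 90 min, 90 and 347 became 164 and 560, 47 and 183, and 34 and 215. The median log2 fold of all probe sets lay between -0.07 and 0.18 over the 5 comparisons, between 0.00 and 0.17 after median scaling and between -0.02 and 0.17 after quantile normalization. No paired analysis was possible because each condition has 1 array and the labels give no replicate numbers.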
